A study of Mus musculus with 9 samples.

Results

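Expression of 10 transcription factors that direct T helper and innate-like lymphocyte lineages was followed in mouse regulatory T cells with and without a targeted Sirt1 gene. The factors were chosen by name as Tbx21, Eomes, Zbtb16, Gata3, Maf, Rora, Ahr, Myb, Id2 and Id3, and every probe set that the platform annotation pairs with 1 of these symbols was read. They account for 19 of the 22626 probe sets that are not controls, and for 10 of 12393 genes. Sirt1 encodes an NAD-dependent deacetylase.

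The cells were CD4+CD25+ regulatory T cells of the C57BL6 strain, isolated with magnets, a step that selects on surface CD4 and CD25 and not on Foxp3. There were 3 arrays of wild type, 3 of a conditional Sirt1 knockout by CD4 cre recombinase, called CD4-cre, and 3 of one by Foxp3 cre recombinase, called Foxp3-cre. The CD4 Cre is active in T cells at large, and the Foxp3 Cre is tied to the gene of the factor that defines regulatory T cells. The sources used here do not give the age, sex or number of the mice or the deleted part of Sirt1. The design text calls the samples independent, but no label ties them to separate animals, so p-values reflect only sample-to-sample spread, part of which may be technical.

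Lineage factors of this kind act as switches. T-bet (Tbx21) and eomesodermin (Eomes) are T-box proteins of interferon-gamma producing T helper 1, cytotoxic and NK cells. PLZF (Zbtb16) is a zinc finger protein of NKT and other innate-like T cells, GATA3 drives T helper 2 cells, c-Maf supports Il10 and Il21 expression, RORα (Rora) and the ligand-activated AHR (Ahr) belong to T helper 17 and innate lymphoid programmes, and c-Myb (Myb) acts in blood progenitors, thymocytes and dividing lymphocytes. ID2 and ID3 lack a DNA-binding region and hold E proteins away from DNA. Regulatory T cells can carry part of each programme, and T-bet, GATA3 or RORγt in a regulatory T cell is known to accompany control of the matching type of response.

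Of the 10 factors 9 passed the filter on signal, and 4 changed. In Foxp3-cre, Tbx21 and Zbtb16 fell and Ahr and Myb rose. In CD4-cre only Myb passed the test, and Tbx21 lay lower without passing it. Gata3, Eomes, Rora, Id2 and Id3 passed in no comparison with limma over the 7436 genes tested, and Maf was too dim to be tested. Signals are on the log2 scale, and a gene counted as changed where its Benjamini-Hochberg adjusted p, taken over every tested gene, was below 0.05.

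Those counts stand against the following background. In Foxp3-cre against wild type 4 of 9 tested factors changed, 2 up and 2 down, where 3.36% of all tested genes did, 1.69% up and 1.67% down. In CD4-cre against wild type 1 of 9 rose and 0 fell, where 0.659% of all genes changed, 0.229% up and 0.43% down. Between the knockouts 0 of 9 passed, where 0.0134% of all genes did (1 gene, Foxp3 itself), and 840 genes had an unadjusted p under 0.05. In the separate limma fit over probe sets 4 of 19 passed in Foxp3-cre (1.11% of all probe sets), 0 in CD4-cre (0.27%, with the brightest Myb set at adjusted p = 0.0591) and 0 between the knockouts (0.00442%). The factors, and the gene lists used below, were chosen with earlier results of these data known. Both knockouts are compared with the same wild type arrays, so their values are given side by side. The median change over the 9 factors was 0.04 in CD4-cre and -0.07 in Foxp3-cre, against 0.03 and 0.01 over all tested genes. Of all tested genes 56.3% lay higher in CD4-cre and 51.1% in Foxp3-cre. Counts for the lists below, of calls and of values above or below 0, are to be read against these shares.

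**Figure D1:**
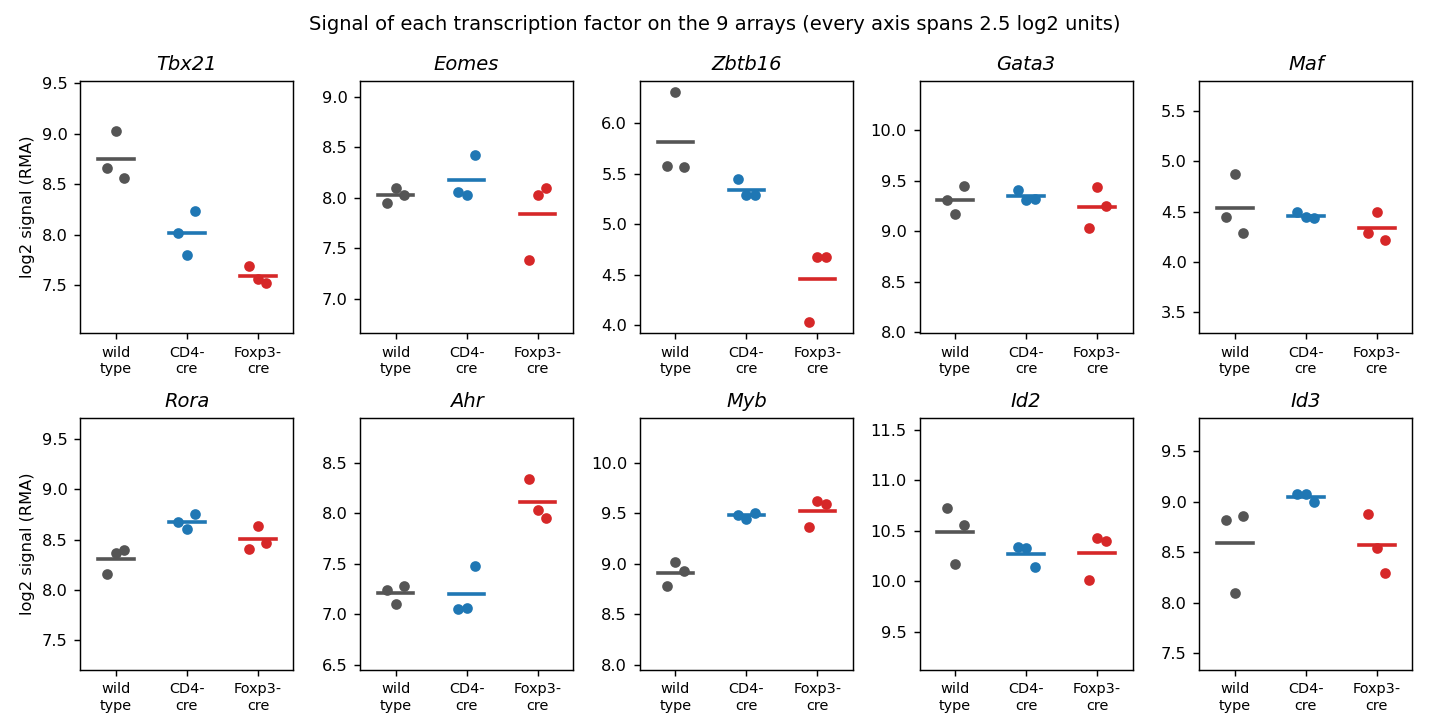
Log2 signal of the probe set that stands for each of the 10 factors, with 1 point per array, the mean as a line and the groups on the x axis. The 3 groups are fully apart in falling order for Tbx21 and Zbtb16, the 3 Foxp3-cre arrays lie above the others for Ahr, and both knockouts lie above wild type for Myb.

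The promoters of Tbx21 and Myb are shown because both genes changed and their windows were among those found. RefSeq promoter windows (build GRCm38.p6) were found for 7 of the 10 factors. Each shows the 250 bases before the start site, 5′ to 3′ on the gene's strand, with matches to searched motifs in capitals.

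Tbx21, chr11:97115332-97115581, minus strand: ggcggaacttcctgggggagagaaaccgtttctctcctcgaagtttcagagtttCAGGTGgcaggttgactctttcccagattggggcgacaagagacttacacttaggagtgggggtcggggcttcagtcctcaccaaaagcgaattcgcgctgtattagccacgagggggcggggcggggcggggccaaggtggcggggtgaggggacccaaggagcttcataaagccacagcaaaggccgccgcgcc
Myb, chr10:21160985-21161234, minus strand: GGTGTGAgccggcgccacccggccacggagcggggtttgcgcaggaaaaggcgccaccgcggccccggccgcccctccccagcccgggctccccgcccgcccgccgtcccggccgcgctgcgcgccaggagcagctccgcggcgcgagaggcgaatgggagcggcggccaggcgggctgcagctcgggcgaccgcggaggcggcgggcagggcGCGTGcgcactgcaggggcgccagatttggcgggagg

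The 6 motifs, each searched on both strands, were the T-box core GGTGTGA, the E-box CACCTG that E proteins bind, the AHR core GCGTG, the GATA motif AGATAA, the MYB motif CAACTG and the ROR core AGGTCA. The T-box core and the E-box can share letters, which they do in neither window shown. The Tbx21 window held 1 E-box, starting 196 bases before the start site, a motif found in 17.2% of all 32851 windows. The Myb window held 1 T-box core at 250 bases, found in 3.33% of all windows, and 1 AHR core at 37 bases, found in 28.2%. The AHR core was also present in the windows of Rora and Id3, and the windows of Gata3, Eomes and Id2 held none of the 6. A match is only a description of these letters.

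Before the factors are taken in turn, several facts touch all of them. Sirt1, represented by 1 probe set, read 7.91, 6.77 and 7.90 on the wild type arrays, 7.69, 7.59 and 7.59 on those of CD4-cre and 7.66, 7.54 and 7.47 on those of Foxp3-cre. The changes were 0.10 and 0.03 (limma adjusted p = 0.882 and 0.958), and without wild type replicate 2 they were -0.28 and -0.35 (adjusted p = 0.0730 and 0.0301). With all arrays the probe set therefore does not separate the groups, and it checks nothing if it lies outside the deleted part. Cd4 read 8.91, 9.23 and 9.04 on the wild type arrays, 8.77, 8.69 and 8.79 on those of CD4-cre and 9.10, 8.87 and 8.94 on those of Foxp3-cre. Its changes were -0.31 and -0.09 (limma adjusted p = 0.230 and 0.630). Foxp3 read 9.16 to 9.69 in wild type and CD4-cre but 2.67, 3.38 and 2.83, near the array's floor, in the group labelled Foxp3-cre. The Foxp3 Cre is tied to this same gene, and where the probe set lies in it is not given. Whether the low signal stands for a loss of Foxp3 was not tested. Of 11 tested regulatory T cell markers 1 fell in Foxp3-cre, Foxp3 itself, and 0 rose, with a median of 0.12. Without wild type replicate 2 the counts were 1 and 1, and the median was 0.06. Wild type replicate 2 stood apart, with correlations of 0.982 to 0.987 with the other arrays (0.992 or more among those) and a beta-actin 5′ minus 3′ signal of -1.53 against -0.68 to -0.45. Values without it are therefore given for the factors where they change a call or move a printed change by over 1.5 times, and for some other named genes. In that fit more of all tested genes were called, 2.57% in CD4-cre (0.753% up and 1.82% down), 7.63% in Foxp3-cre (2.69% up and 4.94% down) and 0.968% between the knockouts, and counts without that array are to be read against these shares. Of the 9 tested factors 1 then rose and 1 fell in CD4-cre, 2 rose and 2 fell in Foxp3-cre, and the median changes were -0.03 and -0.15.

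Tbx21, whose product T-bet switches on Ifng and the T helper 1 programme, fell in Foxp3-cre. Its 1 probe set read 8.66, 9.02 and 8.56 on the wild type arrays, 8.02, 7.80 and 8.24 on those of CD4-cre and 7.69, 7.56 and 7.52 on those of Foxp3-cre. Every CD4-cre array lay below every wild type array, and every Foxp3-cre array lay below every CD4-cre array. The change in Foxp3-cre was -1.16 (SE 0.14), a 2.23-fold lower signal (limma adjusted p = 0.00643), and -1.02 without wild type replicate 2 (adjusted p = 0.0048). In CD4-cre it was -0.73 (SE 0.14, adjusted p = 0.0661), and -0.59 without wild type replicate 2 (adjusted p = 0.0465). The difference between the knockouts, -0.43 with a 95% interval of -0.75 to -0.11, did not pass (adjusted p = 0.299).

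Eomes, the other T-box factor, passed in neither knockout. Its brighter probe set read 7.95, 8.10 and 8.03 on the wild type arrays, 8.06, 8.03 and 8.43 on those of CD4-cre and 7.39, 8.03 and 8.09 on those of Foxp3-cre, so the groups overlapped and Foxp3-cre replicate 1 was the lowest array. The second set had the same lowest array, at 6.92 against 7.49 to 7.84 on the others. The change of the brighter set in Foxp3-cre was -0.19 (95% interval -0.60 to 0.22, limma adjusted p = 0.561) and 0.04 without Foxp3-cre replicate 1. In CD4-cre it was 0.15 (95% interval -0.26 to 0.56, adjusted p = 0.736).

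Genes of the T-bet and Eomes programme lay mostly lower beside Tbx21. The list was chosen with earlier results of these data known, so its counts are a description and no independent support. Of 18 tested genes of that list 5 fell in Foxp3-cre and 1 rose, where 1.67% and 1.69% of all genes did. There 17 of 18 values lay below 0, with a median of -0.36, against a median of 0.01 over all genes. In CD4-cre 1 of 18 fell, where 0.43% of all genes did, 14 of 18 values were below 0 and the median of the list was -0.33. Without wild type replicate 2 the counts were 7 down and 1 up in Foxp3-cre and 2 down in CD4-cre, in a fit that also called more of all genes (4.94% and 1.82% down).

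The steepest fall of the list in Foxp3-cre was that of Cxcr6, a chemokine receptor of effector and innate-like T cells. It read 9.70, 9.18 and 9.32 on the wild type arrays, 8.85, 8.67 and 8.56 on those of CD4-cre and 7.87, 7.97 and 8.05 on those of Foxp3-cre, and fell by 1.44 in Foxp3-cre (SE 0.14, limma adjusted p = 0.0016). Ifng, the cytokine that T-bet is best known for, read 8.65, 8.54 and 8.49, then 7.84, 7.63 and 7.80, then 7.51, 7.27 and 7.40, and changed by -0.80 in CD4-cre (adjusted p = 0.00726) and -1.17 in Foxp3-cre (adjusted p = 0.00051). For both genes the 3 groups were fully apart in the order seen for Tbx21. Fasl, a death ligand, fell by 1.31, Prf1, the pore protein perforin, by 0.86 and Nkg7, a protein of cytotoxic granules, by 0.58 in Foxp3-cre, whereas Gzmk, a granzyme, rose by 1.34. Prf1 no longer passed without wild type replicate 2 (-0.81, adjusted p = 0.0582). Cxcr3, a receptor also known as a T-bet target, stood at -0.01 in Foxp3-cre and 0.40 in CD4-cre and passed in neither, and without wild type replicate 2 at -0.13 and 0.29. Gzmb, another granzyme, stood at -0.01 in Foxp3-cre and -0.17 in CD4-cre. Without that array, where Gzmb read 7.64 against 8.34 and 8.55, it stood at -0.28 and -0.44 without passing.

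**Figure D2:**
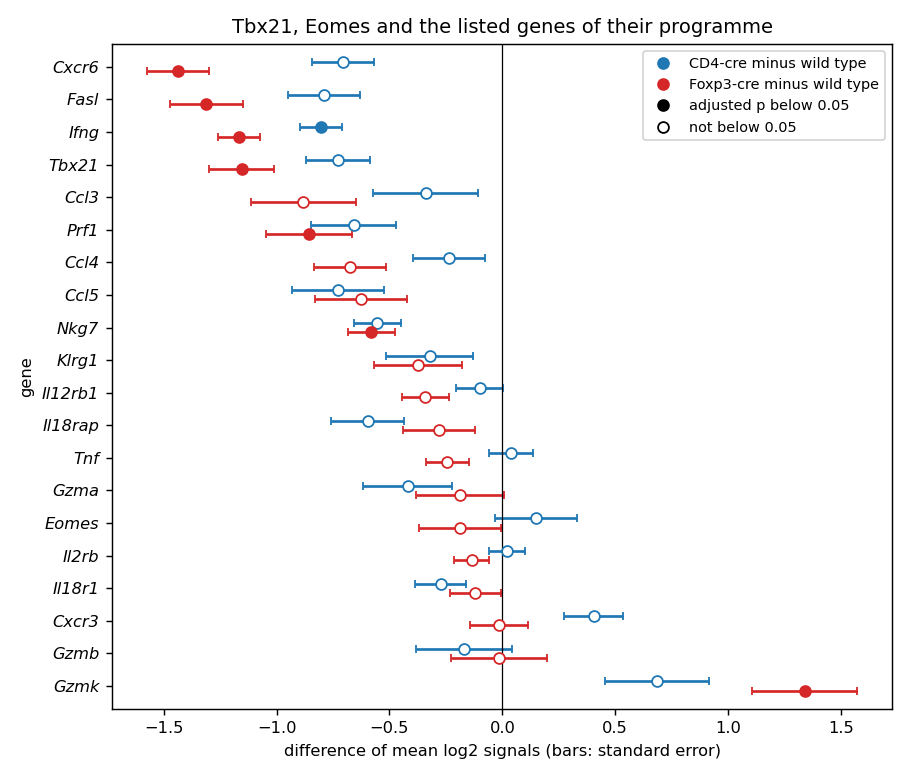
Difference of mean log2 signals against wild type for Tbx21, Eomes and the 18 tested genes of their programme, with the standard error as bars and filled points where the adjusted p was below 0.05. In Foxp3-cre Cxcr6, Fasl, Ifng, Tbx21, Prf1 and Nkg7 fell and Gzmk rose, while Eomes, Gzmb and Cxcr3 lay near 0.

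NK cells carry T-bet, Eomes and most of these genes too, and their markers moved with the group. On the marker list of NK and innate lymphoid cells, 9 of 9 tested genes lay lower in CD4-cre and 7 of 9 in Foxp3-cre, with medians of -0.54 and -0.46, and 0 passed in limma. The mean log2 signal of the list was 8.29 to 8.38 in wild type, 7.21 to 8.15 in CD4-cre and 7.23 to 8.18 in Foxp3-cre. Klra8, an NK receptor, read 6.46, 7.47 and 6.84 on the wild type arrays, 5.28, 4.41 and 6.43 on those of CD4-cre and 3.96, 5.31 and 5.73 on those of Foxp3-cre. Ncr1, a defining NK receptor, gave 5.90, 5.44 and 5.73 in wild type. The CD4-cre arrays gave 5.37, 5.18 and 5.52, and the Foxp3-cre arrays 5.45, 5.48 and 5.48. Every knockout array thus lay below wild type replicates 1 and 3. Its changes, in that order of knockouts, were -0.33 and -0.22, and neither passed (limma adjusted p = 0.291 and 0.345). Leaving out wild type replicate 2 gave -0.46 and -0.34, again without a pass (adjusted p = 0.0580 and 0.0749). The part of NK cells in the changes of Tbx21 and its programme was not tested. In a bulk sample, fewer cells of a type and less RNA per cell cannot be told apart.

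Zbtb16, which encodes PLZF, had the largest change of the 9 tested factors in Foxp3-cre, from a low level. The probe set that stands for it read 5.58, 6.31 and 5.57 on the wild type arrays, 5.45, 5.29 and 5.29 on those of CD4-cre and 4.03, 4.67 and 4.68 on those of Foxp3-cre. The groups did not overlap, and the highest CD4-cre value lay just under the lowest wild type value. In Foxp3-cre it fell by 1.36 (SE 0.23), to a 2.57-fold lower signal (limma adjusted p = 0.0191), and by 1.11 without wild type replicate 2 (adjusted p = 0.0157). In CD4-cre the change was -0.48 (95% interval -0.98 to 0.03, adjusted p = 0.375) and -0.23 without wild type replicate 2 (adjusted p = 0.499), and between the knockouts it was -0.88 (adjusted p = 0.232).

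Both Zbtb16 probe sets have limits. The one tested has the suffix x_at, by which the manufacturer marks sets with probes that can bind other transcripts, and its Foxp3-cre values lay below the signal threshold of 4.979. The second set was dim throughout, at 4.25, 4.74 and 4.33 on the wild type arrays, 4.23, 4.31 and 4.38 on those of CD4-cre and 4.22, 4.01 and 3.98 on those of Foxp3-cre. Its change in Foxp3-cre was -0.37 (SE 0.13, adjusted p = 0.244 over all probe sets), in the same direction and smaller, and -0.22 without wild type replicate 2. With the mean of both sets in place of the brighter one the change was -0.86.

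Of 14 tested genes on the list for PLZF and innate-like T cells 2 fell in Foxp3-cre, with 9 of 14 values below 0 and a median of -0.07. They were Cxcr6 and Cd160, a receptor of NK and innate-like T cells, which changed by -1.09 there (limma adjusted p = 0.0148). In CD4-cre Cd160 stood at -0.76 without passing (adjusted p = 0.0921), and without wild type replicate 2 at -0.54 (adjusted p = 0.0312). Klrd1 and Klrk1, lectin-like NK receptors, stood at -0.79 and -0.90 in Foxp3-cre without passing, and Slamf6, a receptor used in NKT cell selection, at 0.69. Without wild type replicate 2 Slamf6 stood at 0.39, Klrk1 passed at -1.09 (adjusted p = 0.0495), and the list's median was -0.13. Cxcr6, Il18r1 and Il12rb1 are on this list and on that of T-bet and Eomes, so the counts of the lists overlap. The NK marker list likewise shares Klrd1 with this list and Gzma with that of T-bet and Eomes.

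Gata3, the T helper 2 factor, was level. It read 9.31, 9.17 and 9.45 on the wild type arrays, 9.41, 9.31 and 9.32 on those of CD4-cre and 9.03, 9.44 and 9.25 on those of Foxp3-cre, with all groups overlapping. Changes were 0.04 (95% interval -0.22 to 0.30) and -0.07 (95% interval -0.33 to 0.19), with adjusted p of 0.895 and 0.758, and without wild type replicate 2 they were -0.03 and -0.14. Its programme held 6 tested genes, and 2 of them fell in Foxp3-cre. Il4, the T helper 2 cytokine, read 6.55, 6.56 and 6.26 on the wild type arrays, 5.57, 5.49 and 5.57 on those of CD4-cre and 5.06, 5.30 and 5.15 on those of Foxp3-cre, changing by -0.91 and -1.29 (limma adjusted p = 0.00676 and 0.00051). Il4 thus lay lower while Gata3 stayed within the spread of its replicates. The other fallen gene was again Cxcr6, and Ccr8, Il4ra, Il10 and Crlf2 passed in neither knockout.

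Maf had 1 dim probe set and was not tested. It read 4.44, 4.87 and 4.29 on the wild type arrays, 4.49, 4.44 and 4.44 on those of CD4-cre and 4.29, 4.50 and 4.22 on those of Foxp3-cre, below the signal threshold on every array and with overlapping groups. Il10, a known c-Maf target, stood at -0.12 with CD4-cre and 0.22 with Foxp3-cre (limma adjusted p = 0.866 and 0.665), and without wild type replicate 2 at -0.35 and -0.02. On the list for MAF and follicular helper genes Il4 was the 1 of 8 tested that passed, and Icos, a costimulatory receptor, stood at 0.14 and 0.13, and at 0.23 and 0.22 without that array. Il21, also on that list, was not tested because its mean lay below the signal threshold. It read 4.46, 4.02 and 4.50 on the wild type arrays, 4.41, 4.74 and 4.90 on those of CD4-cre and 6.15, 4.90 and 5.01 on those of Foxp3-cre.

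Rora lay higher in both knockouts without passing the test. Its brightest set read 8.16, 8.36 and 8.39 on the wild type arrays, 8.68, 8.60 and 8.76 on those of CD4-cre and 8.40, 8.63 and 8.46 on those of Foxp3-cre, so no knockout array lay as low as any wild type array. The change was 0.37 in CD4-cre (95% interval 0.16 to 0.59, limma adjusted p = 0.133) and 0.19 in Foxp3-cre (95% interval -0.02 to 0.41, adjusted p = 0.273). The second set stood at 0.34 and 0.40, and at 0.12 and 0.17 without wild type replicate 2, where it read 6.07 against 6.71 and 6.78. The dimmest set stood at -0.16 and 0.06, and at 0.01 and 0.23 without that array. Of the T helper 17 list 6 genes were tested and 0 passed in limma. Irf4, a factor of T helper 17 and effector regulatory T cells, was the highest in Foxp3-cre at 0.69 (adjusted p = 0.0523), and Ccr6, a T helper 17 chemokine receptor, was the highest in CD4-cre at 0.46.

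Groups that do not overlap were common on these arrays. In CD4-cre against wild type 3 of 9 tested factors lay fully higher and 2 fully lower, where 11.9% and 9.16% of all tested genes did (21% together). In Foxp3-cre the counts were again 3 and 2, against 11.1% and 12.2% of all genes (23.4% together). Between the knockouts 1 lay fully higher and 3 fully lower in Foxp3-cre, against 10.9% and 18.8% of all genes (29.7% together).

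**Figure D3:**
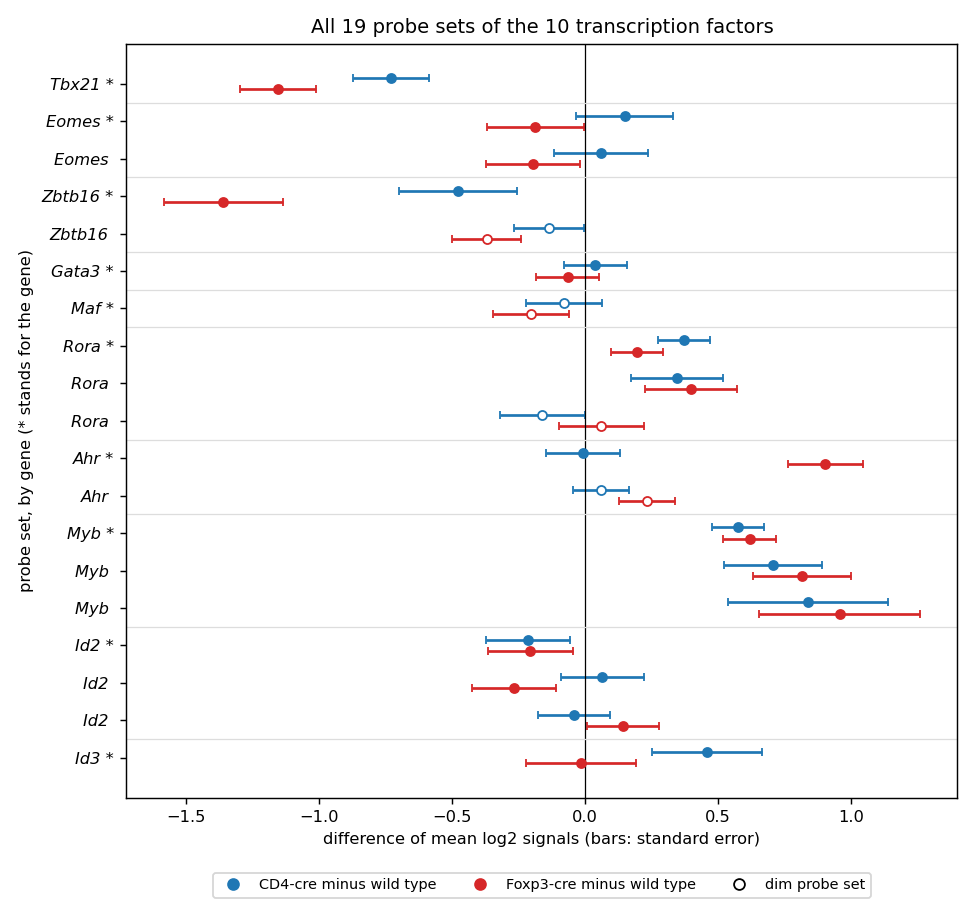
Difference of mean log2 signals against wild type for all 19 probe sets, with the standard error as bars and open points for sets whose mean lay below the signal threshold of 4.979. The 3 Myb sets lie between 0.57 and 0.96 in both knockouts, while the dim sets of Ahr and Zbtb16 show smaller differences than the brighter sets of the same genes.

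Ahr, a receptor for small aromatic molecules that works in T helper 17 cells, innate lymphoid cells and intestinal regulatory T cells, rose in Foxp3-cre and not in CD4-cre. It read 7.23, 7.10 and 7.28 on the wild type arrays, 7.05, 7.06 and 7.48 on those of CD4-cre and 8.34, 8.03 and 7.95 on those of Foxp3-cre. All 3 Foxp3-cre arrays lay above the 6 others. The change in Foxp3-cre was 0.90 (SE 0.14), a 1.87-fold higher signal (limma adjusted p = 0.0148), and in CD4-cre it was -0.01 (95% interval -0.32 to 0.31, adjusted p = 0.983). Without wild type replicate 2 these were 0.85 (adjusted p = 0.0211) and -0.06. The difference between the knockouts was 0.91 (95% interval 0.60 to 1.23), with an adjusted p of 0.0805 that missed the threshold. Without wild type replicate 2, which is in neither group but shares the estimate of the spread, that adjusted p was 0.0387. A second, dim Ahr set stood at 0.23 in Foxp3-cre (adjusted p = 0.371 over all probe sets).

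No tested gene of the AHR list passed beside it. Cyp1a1, Cyp1b1 and Ahrr, its classical targets, read at most 3.47, 3.22 and 2.86 on any array, below the signal threshold, and were not tested. Of the 3 tested genes on that list, Tiparp, Nfe2l2 and Entpd1, 0 passed in limma in either knockout. Tiparp, an ADP-ribosyltransferase induced by AHR, stood at -0.004 and -0.06, and at -0.13 and -0.19 without wild type replicate 2. Nfe2l2, the oxidative stress factor NRF2, stood at -0.24 and -0.26, and without wild type replicate 2 it lay at -0.53 and -0.54 (adjusted p = 0.0068 and 0.0030).

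Myb rose by a similar amount in both knockouts, and its 3 probe sets moved the same way. The brightest read 8.78, 9.01 and 8.92 on the wild type arrays, 9.49, 9.45 and 9.50 on those of CD4-cre and 9.36, 9.62 and 9.59 on those of Foxp3-cre. Every knockout array lay above every wild type array, on each of the 3 sets. CD4-cre lay 0.57 above wild type (SE 0.09, limma adjusted p = 0.0351) and Foxp3-cre 0.62 (SE 0.09, adjusted p = 0.0147). The knockouts differed by 0.04 (95% interval -0.17 to 0.26). The CD4-cre call was kept in 2 of the 9 fits that leave out 1 array, those without wild type replicate 2 and Foxp3-cre replicate 1, with changes from 0.51 to 0.63 over the 9. The Foxp3-cre call was kept in 8 of 9, and without Foxp3-cre replicate 3 the change was 0.58 (adjusted p = 0.0570).

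The set used for Myb also has the suffix x_at, so the others bear on it. The second set read 8.01, 7.35 and 8.19 on the wild type arrays, 8.63, 8.54 and 8.50 on those of CD4-cre and 8.54, 8.70 and 8.76 on those of Foxp3-cre, and its changes were 0.71 and 0.82 (limma adjusted p = 0.197 and 0.0712 over all probe sets). The third read 6.48, 5.12 and 6.46 in wild type against 6.82 to 7.15 in the knockouts, and its changes were 0.84 and 0.96. Wild type replicate 2 was the lowest array on both, and without it their changes were 0.46 and 0.57 for the second set and 0.39 and 0.51 for the third. In Foxp3-cre both then passed over all probe sets (adjusted p = 0.0236 and 0.0413). The brightest set then also passed in CD4-cre in that limma fit (adjusted p = 0.0250, against 0.0591 with all arrays).

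Myb is active in dividing cells and blood progenitors, and markers of both moved with the groups. Of 16 tested cell cycle genes 8 rose in Foxp3-cre, with 16 of 16 higher and a median of 1.10. Of all tested genes 1.69% rose and 51.1% lay higher there. In CD4-cre 0 passed in limma, with 16 of 16 higher, where 56.3% of all genes were, and a median of 0.40. Kif11, a mitotic motor, rose by 1.27 and Ube2c, a mitotic ubiquitin-conjugating enzyme, by 1.25 in Foxp3-cre. The mean of the list was 6.95 to 7.34 in wild type, 7.42 to 7.54 in CD4-cre and 7.72 to 8.55 in Foxp3-cre. Granulocyte precursor markers (Mpo, Elane, Prtn3 and Ctsg) rose in 4 of 4 in Foxp3-cre, and their mean was 4.51 to 4.996, 5.47 to 5.66 and 5.83 to 6.42. The cell cycle median without wild type replicate 2 was 0.25 in CD4-cre and 0.92 in Foxp3-cre, where 7 of 16 rose. The part of these cells in the rise of Myb was not tested. Of 6 tested MYB partners and targets 0 passed in limma in either knockout, with Myc, a growth factor response gene, at 0.40 and 0.49 and Cxcr4, a chemokine receptor, at -0.15 and -0.55. Myc read lowest on wild type replicate 2, and without that array Myc stood at 0.05 and 0.15, and Cxcr4 at -0.22 and -0.63.

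Neutrophil markers were also highest in Foxp3-cre, where Ahr rose, and macrophage markers lay mostly higher there. Of 10 tested neutrophil markers 6 rose, and 9 of 10 values lay above 0. Mpo and Elane among the risen genes are also granulocyte precursor markers, so the counts of these lists overlap. S100a8, S100a9, Cxcr2 and Csf3r did not pass. Csf3r stood at -0.33 in Foxp3-cre and -1.53 in CD4-cre, and at -0.66 and -1.87 without wild type replicate 2. The mean of the list was 7.78 to 8.75 in wild type, 8.23 to 9.08 in CD4-cre and 9.16 to 10.14 in Foxp3-cre. On the monocyte and macrophage list 1 of 6 tested genes rose, with 6 of 6 values above 0. Its means, over all 11 genes with the dim ones included, were 5.59 to 6.07, 5.43 to 6.47 and 6.10 to 7.55, so the knockouts overlapped. The neutrophil count was 5 of 10 without wild type replicate 2, and the cell cycle list was likewise highest in Foxp3-cre. B cell markers ranged from 7.04 to 7.60, 7.57 to 7.69 and 7.04 to 8.30, and T cell markers were level at 10.38 to 10.59, 10.49 to 10.54 and 10.46 to 10.55. The part of other cells in the rise of Ahr was not tested.

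**Figure D4:**
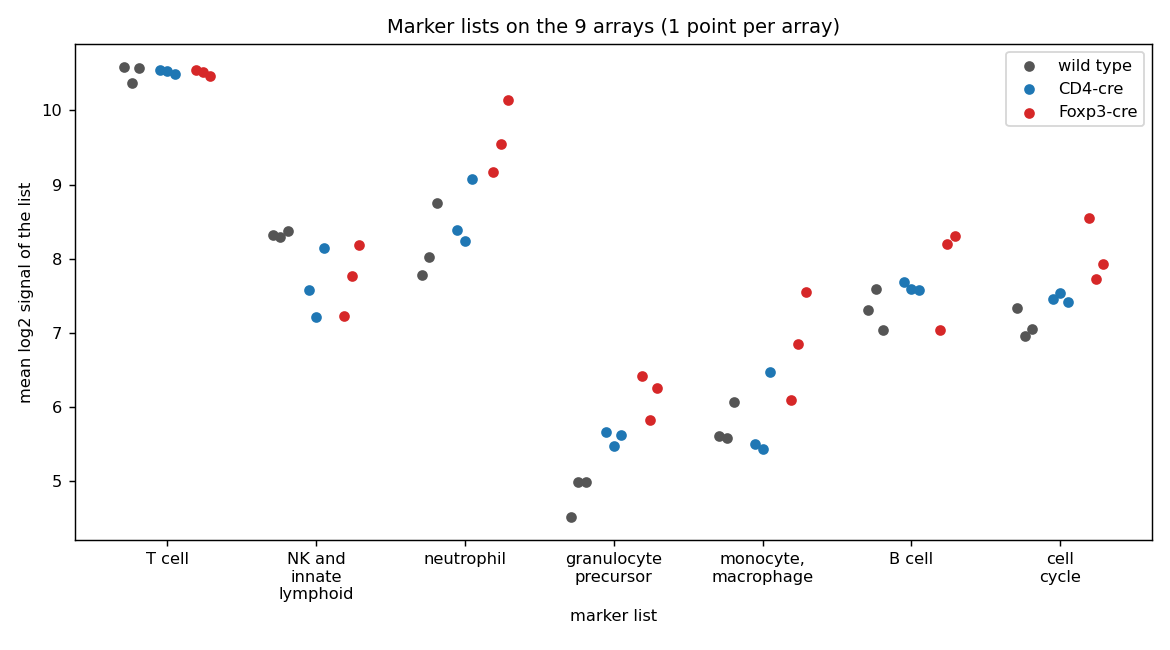
Mean log2 signal of 7 marker lists on each array, with the lists on the x axis and 1 point per array coloured by group. T cell markers lie between 10.38 and 10.59 on all arrays, NK markers are lower in the knockouts than the 8.29 to 8.38 of wild type, and neutrophil, granulocyte precursor and cell cycle lists are highest in Foxp3-cre.

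Id2, an inhibitor of E proteins that favours effector and innate lymphoid fates, did not pass in any comparison. Its brightest set read 10.73, 10.17 and 10.56 on the wild type arrays, 10.34, 10.33 and 10.14 on those of CD4-cre and 10.01, 10.43 and 10.39 on those of Foxp3-cre, and the groups overlapped. The changes were -0.21 in both knockouts (95% intervals -0.57 to 0.14 and -0.56 to 0.15), and without wild type replicate 2, its lowest wild type array, they were -0.37 and -0.36 (limma adjusted p = 0.157 and 0.128). The other sets stood at 0.07 and -0.04 in CD4-cre and at -0.27 and 0.14 in Foxp3-cre, so the 3 sets did not share a direction. Without that array these sets stood at -0.07 and -0.13 in CD4-cre and at -0.41 and 0.05 in Foxp3-cre.

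Id3, which keeps E proteins in check in naive and regulatory T cells, lay higher in CD4-cre than in the other groups without passing. It read 8.82, 8.09 and 8.86 on the wild type arrays, 9.07, 9.08 and 8.996 on those of CD4-cre and 8.88, 8.54 and 8.29 on those of Foxp3-cre. The CD4-cre arrays lay above all others. The change was 0.46 in CD4-cre (95% interval -0.01 to 0.93, limma adjusted p = 0.358) and 0.21 without wild type replicate 2, the lowest array. In Foxp3-cre it was -0.02, and -0.26 without that array (adjusted p = 0.281), and the difference between the knockouts was -0.47 (95% interval -0.94 to -0.01, adjusted p = 0.432). Their E protein partners Tcf3, Tcf4 and Tcf12 passed in neither knockout, with Tcf3 at 0.30 and 0.25.

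Among 33 other tested lymphocyte transcription factors 2 fell in Foxp3-cre and 0 passed in CD4-cre by limma. They were Foxo1, a factor of quiescent and naive T cells, at -0.46 (SE 0.10, adjusted p = 0.0448), and Zbtb7b, the CD4 lineage factor ThPOK, at -0.38 (SE 0.08, adjusted p = 0.0387). Stat4, which carries the IL-12 signal towards T-bet, stood at -0.36 and -0.37 without passing, and passed in both knockouts without wild type replicate 2, at -0.48 (adjusted p = 0.0354 and 0.0220). Runx3, a partner of T-bet, stood at 0.26 in both. The median of the list was 0.08 in CD4-cre and 0.06 in Foxp3-cre, and without wild type replicate 2 it was 0.04 and -0.01, with 5 falls in Foxp3-cre and 2 in CD4-cre, where 4.94% and 1.82% of all genes fell.

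The genes most alike to each changed factor were found as those with the smallest root-mean-square difference of centred log2 signals over the 9 arrays, among all tested genes. For Tbx21 they were Dnajb1, a heat shock cochaperone (0.15), Ifng (0.15) and Plekhf1, an endosome and lysosome protein (0.15). Dnajb1 stood at -0.45 in CD4-cre and fell by 0.99 in Foxp3-cre. For Zbtb16 they were Prrt1 (0.23), Rrad, a small GTPase (0.25), and Cd160 (0.26). For Ahr they were Itgb1, the integrin beta-1 chain (0.16), Adam19, a membrane metalloprotease (0.18), and Kif4, a chromosome-bound kinesin (0.21), and Itgb1 stood at 0.01 in CD4-cre (-0.13 without wild type replicate 2) and rose by 0.83 in Foxp3-cre. For Myb they were Camk2b, a calcium-dependent kinase subunit (0.11), Wdtc1 (0.12) and Borcs7, a part of a lysosome-positioning complex (0.12), and Wdtc1 rose by 0.77 and 0.70. All points share the same 9 arrays, so a likeness is a description.

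**Figure D5:**
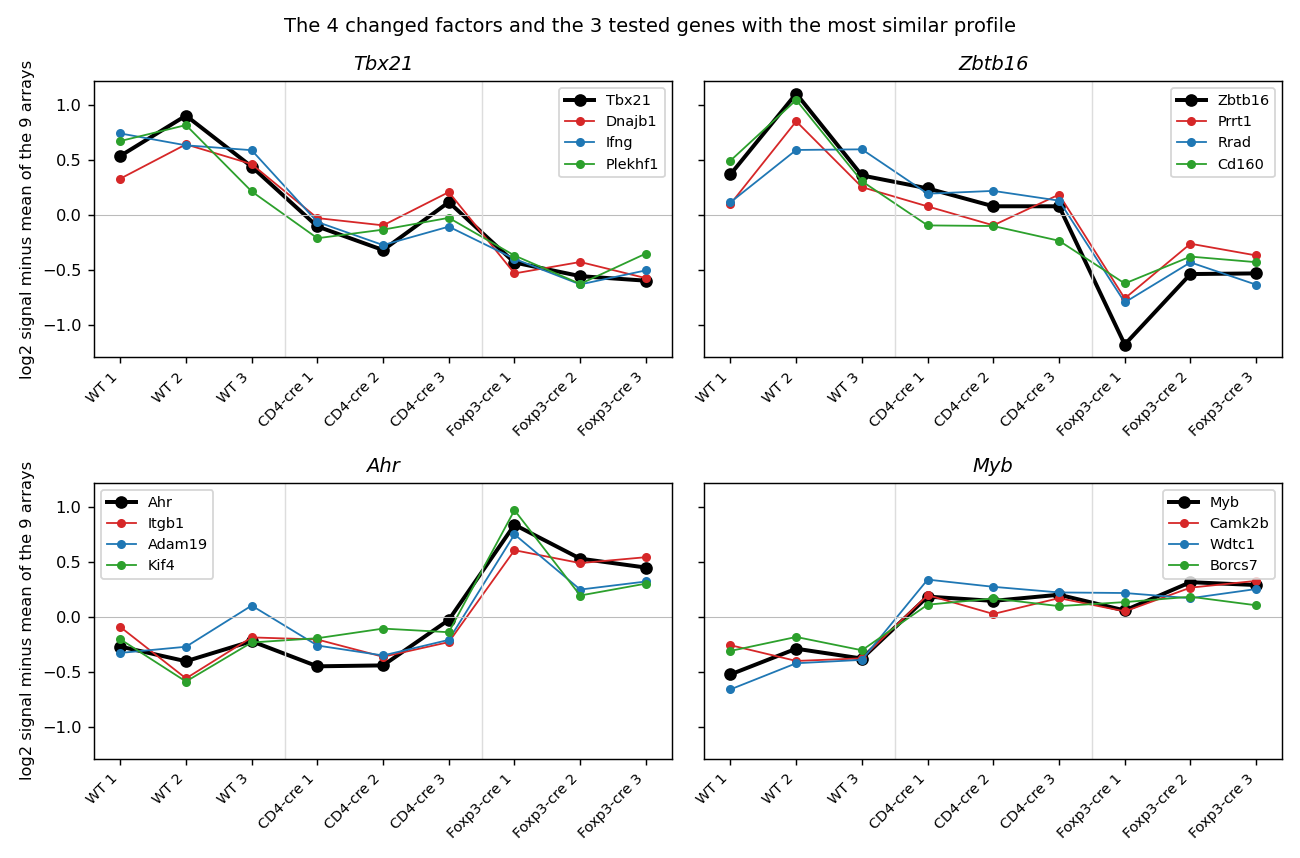
Log2 signal minus the mean of the 9 arrays, by array, for Tbx21, Zbtb16, Ahr and Myb (thick black lines) and for the 3 tested genes with the most similar profile to each. The profiles of Tbx21 and Zbtb16 step down from wild type to Foxp3-cre, that of Ahr is raised on the 3 Foxp3-cre arrays, and that of Myb is raised on all 6 knockout arrays.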

How the data were processed

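The authors deposited 1 log2 signal per probe set and array, made with RMA per the submitters' processing notes, whose version and build the sources used here do not give. RMA compresses differences of dim probe sets and removes changes common to all genes, and the number of arrays limits the precision. Of 22690 probe sets 64 were controls. Each of 12393 genes was represented by its probe set of highest mean, and genes at or above the 40th percentile (4.979) were tested, 7436 in all. Changes were tested two-sided with limma 3.58.1 in R 4.3.3 (lmFit, eBayes) in 1 fit over the 3 groups, with Benjamini-Hochberg adjustment, and the fit was tested on simulated data. A second fit covered all 22626 probe sets without a filter. Exact permutation of 3 against 3 arrays reaches p = 0.1 at the lowest and was not run. The factors and gene lists were chosen with earlier results of these data known. Named genes are the 10 factors, up to 5 changed genes per list or the 2 with the largest change, the 3 genes most alike to each changed factor, Sirt1, Foxp3 and Cd4, and others chosen after their values were seen. SD is over the 3 arrays of a group. SE, also in the figures, is the standard error of a change from the limma fit, with the spread estimated by eBayes from all groups together. With all arrays it is therefore the same for a gene or probe set in all 3 comparisons. Alternatives were other filters, another choice of probe set, other normalizations and variance models, array weights, 2 groups only, a replicate block and leaving out each array.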

Additional observations from a re-analysis of the deposited data

Results flagged for a closer look

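In the main fit, without a replicate block, Foxp3 was the 1 gene whose change differed between the knockouts over all genes tested. Its difference was -6.70 in Foxp3-cre minus CD4-cre (limma adjusted p = 1.48e-07). None of the 9 tested transcription factors passed that test, by limma over 7436 genes, where 840 genes had an unadjusted p under 0.05.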

How the results depend on the processing

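Of 27 changes (9 factors in 3 comparisons) recomputed under 9 other settings and 9 fits without 1 array, 438 of 483 values kept their direction and their side of the threshold, and 0 of the called ones reversed. Tbx21 in Foxp3-cre passed in all 18. The cause of each shift below was not tested.

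Counts of all genes called moved most. With array weights they were 1298 in CD4-cre, 1539 in Foxp3-cre and 812 between the knockouts, with 3, 4 and 4 factors, against 49, 250 and 1 genes with 1, 4 and 0 factors. With only the 2 groups compared there were 22, 16 and 55 genes, with 0 factors in CD4-cre and 1, Tbx21, in Foxp3-cre. The 60th percentile filter left 29 genes in CD4-cre, and Zbtb16 was not tested there. Between the knockouts quantile normalization gave 5 genes, and median centring gave 8 genes with 1 factor, Ahr. In CD4-cre 0 factors passed with median centring or the mean of all probe sets. Without 1 array the counts ranged from 4 to 191, 71 to 567 and 1 to 72 genes, the highest without wild type replicate 2 in each case, and from 0 to 2, 3 to 4 and 0 to 1 factors. The T-bet and Eomes programme without wild type replicate 2, added after seeing the data, had 2 falls in CD4-cre against 1.

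Changes near 0 reversed. Ahr in CD4-cre was 0.0252 with the mean of all probe sets and -0.15 to 0.0639 without 1 array, Rora between the knockouts 0.0323 with that mean, and Gata3 in CD4-cre -0.0660 with array weights and -0.0317 to 0.11 without 1 array. Id2 between the knockouts was -0.0468 with that mean, -0.0287 with quantile normalization and -0.0665 to 0.14 without 1 array. Without 1 array Myb ranged from -0.00305 to 0.13 and Gata3 from -0.20 to 0.00217 between the knockouts, and in Foxp3-cre Gata3 ranged from -0.17 to 0.0408, Eomes from -0.32 to 0.0364 and Id3 from -0.26 to 0.12.

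The replicate numbers share no stated litter or day, so they were not taken as pairs in the main fit. Deviations of same-numbered arrays correlated at -0.03 to 0.49, and those of different-numbered arrays at -0.39 to 0.32. Most same-numbered pairs lay above 0 and most different-numbered pairs below 0. These values do not show that the numbers are unrelated, and whether the numbers mark a shared day or batch was not tested. With the replicate block 96 genes and 1 factor, Ahr (adjusted p = 0.0281), passed between the knockouts, and 67 and 354 genes in CD4-cre and Foxp3-cre.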
